A study of Caenorhabditis elegans with 2 samples.

Results

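FKH-10 peaks that lie on the autosomes, between protein-coding genes and away from gene promoters, made up 495 of the 2602 peaks (19.0%) that the authors kept as optimal in ChIP-seq of whole first-stage (L1) larvae of Caenorhabditis elegans. Each was chosen by the position of its summit alone. The summit had to be off the X chromosome, outside every window from 1000 bp upstream to 200 bp downstream of a protein-coding start, outside every protein-coding gene and in no annotated exon. No signal value was used in the choice, although all 2602 peaks had already passed the authors' own threshold.

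The study had 1 group with 2 biological replicates and no second condition, so no comparison between conditions could be made. Both replicates were mixed-sex L1 animals of strain OP337, which carries unc119(ed3) and the integrated transgene wgIs377, a fkh-10 gene with a TY1, EGFP and FLAG tag that is accompanied by an unc119 copy. All the animals therefore came from 1 transgenic line, and the protein followed was the tagged copy. For the antibody the labels give no more than the target's name, and the control they mention was not analysed here. Whole larvae mix all tissues, so the cells behind a peak cannot be told from these lists.

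Forkhead proteins bind DNA through a winged-helix domain, and many of them recognise AT-rich words related to GTAAACA. Most known regulatory elements of C. elegans lie close to gene starts, because its intergenic gaps are short, but enhancers are also known in introns and farther upstream. The name of the set says only where the summits lie. A peak between genes may belong to either neighbour or to none, and the nearest protein-coding start is used below as an address, not as a target.

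Each peak's signal is a value set by the authors. Its scale is not given, so signals are compared within 1 list and not between the lists of the replicates and the list made from both. The peak lists hold no read counts and the depth is unknown. Intervals are exact 95% binomial intervals (Clopper-Pearson) that cover the sampling of peaks only, and neighbouring peaks are not independent. As a yardstick, the 17.5 Mb of autosomal sequence open to the rule was tiled with 155463 windows of 101 bp. Only windows wholly inside that sequence were kept, so part of it next to its edges is left out. A peak, by contrast, needed only its summit there. Each share among the peaks is set beside the share among these windows.

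Summit sequences of the leading peaks are shown first, because their composition is what the peaks have most in common. Each is the 101 bp centred on the summit on the plus strand of ce11, from the RefSeq copy of the assembly. Capitals mark, on either strand, the words GAGAGAGA, CTGCGTCTC and CACACACA, the E-box CACGTG, the GATA factor core TGATAA, the homeodomain-type word TAATTA and 4 forkhead words. The forkhead words are GTAAACA and the variants with A as the first letter, T as the sixth, or both. The 6-letter word CGTCTC, which was added after the data were seen, is marked too. The first 5 are the peaks of highest signal, at chrII:5543502-5543602, chrII:8559315-8559415, chrIII:3801490-3801590, chrV:20778394-20778494 and chrIII:13062632-13062732.
ins-13: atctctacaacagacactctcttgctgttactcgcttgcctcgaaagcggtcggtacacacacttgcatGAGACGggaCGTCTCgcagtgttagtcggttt
iff-2: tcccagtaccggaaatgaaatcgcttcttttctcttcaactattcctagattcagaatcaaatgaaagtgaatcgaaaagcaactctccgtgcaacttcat
mtm-3: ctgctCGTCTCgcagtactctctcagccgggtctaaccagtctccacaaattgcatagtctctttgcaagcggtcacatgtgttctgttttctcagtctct
hif-1: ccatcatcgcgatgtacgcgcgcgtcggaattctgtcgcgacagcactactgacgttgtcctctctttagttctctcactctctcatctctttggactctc
F54F12.1: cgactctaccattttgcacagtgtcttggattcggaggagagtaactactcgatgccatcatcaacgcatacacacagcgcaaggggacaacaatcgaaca
Only the ins-13 and mtm-3 windows among these 5 hold a marked word, in both cases CGTCTC or its reverse complement GAGACG, and none holds a forkhead word.

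The next windows are those of the peaks of highest signal that hold a given word. They show what the summit of such a peak looks like. R05C11.4 stands for GAGAGAGA, here as TCTCTCTC, at chrIV:2049005-2049105. A second peak beside F54F12.1 stands for CTGCGTCTC, at chrIII:13061249-13061349. The saeg-1 peak holds both a forkhead word and CACGTG, at chrV:10871547-10871647. The egl-3 peak stands for CACACACA, here as TGTGTGTG, at chrV:10174842-10174942. The akap-1 peak at chrIII:6350569-6350669 holds TGATAA, and the nlp-11 peak at chrII:9696058-9696158 holds TAATTA.
R05C11.4: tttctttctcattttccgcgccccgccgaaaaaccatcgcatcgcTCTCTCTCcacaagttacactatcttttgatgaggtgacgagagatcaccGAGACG
F54F12.1, second peak: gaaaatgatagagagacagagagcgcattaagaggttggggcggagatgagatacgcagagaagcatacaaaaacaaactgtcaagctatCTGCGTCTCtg
saeg-1: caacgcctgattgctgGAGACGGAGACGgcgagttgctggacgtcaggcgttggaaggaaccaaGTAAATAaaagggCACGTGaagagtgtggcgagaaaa
egl-3: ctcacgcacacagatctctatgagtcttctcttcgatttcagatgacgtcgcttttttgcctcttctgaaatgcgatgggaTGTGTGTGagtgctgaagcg
akap-1: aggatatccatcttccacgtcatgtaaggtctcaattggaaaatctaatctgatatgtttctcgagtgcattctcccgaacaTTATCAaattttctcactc
nlp-11: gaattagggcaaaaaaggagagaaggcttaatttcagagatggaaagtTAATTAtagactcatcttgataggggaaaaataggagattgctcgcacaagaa
The saeg-1 window also holds GAGACG in 2 adjacent copies, so the forkhead word in it is 1 of several marked words.

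Summits were richer in G and C than the sequence around them. The median summit window had 43.6% G and C, against 33.7% in the flanking windows centred 300 bp to each side and 33.7% in the tiled windows. The summit exceeded the mean of its own flanks in 417 of the 495 peaks (84.2%), and single windows ran from 22.8% to 64.4%. Here and below, the peaks of 1 replicate alone are those of the same position class among its 2602 highest peaks. In replicate 1 alone they had a median of 42.6% at the summit, and in replicate 2 alone 44.6%, each against 33.7% in the flanks. Autosomal intron peaks had 42.6%, X intergenic peaks 42.6% and autosomal promoter peaks 47.5%. On average 22.1% of the bases in a summit window were masked as repeats, against 44.1% in the tiled windows. The central 51 bases occurred once in the genome for 494 of the 495 summits.

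A GA repeat and a 9-letter word were concentrated at the summits. GAGAGAGA stood in 45 of 495 summit windows (9.09%, interval 6.71 to 12.0%), against 0.707% of the flanks and 0.934% of the tiled windows; over all 2602 optimal peaks the share was 6.69%. CTGCGTCTC, which shares at most its last 4 letters with the other strand of GAGAGAGA, stood in 44 (8.89%, 6.53 to 11.7%), against 0.606% of the flanks and 0.565% of the tiled windows, with 6.5% over all optimal peaks. One or the other was present in 81 summits (16.4%), against 1.45% of the tiled windows, and 8 summits had both. The replicates did not give these words the same weight. GAGAGAGA was in 33 of 503 peaks (6.56%) of replicate 1 and in 43 of 477 (9.01%) of replicate 2, and CTGCGTCTC in 24 (4.77%) and 48 (10.1%). In each replicate both words were still more frequent than in its own flanks, where no share exceeded 1.26%.

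Peaks with GAGAGAGA were weaker by median signal than those without it, and for CTGCGTCTC the order was the reverse. The median signal was 50.6 with GAGAGAGA and 58.7 without it, and 62.2 with CTGCGTCTC and 57.3 without it. Of the 20 peaks of highest signal, 0 held GAGAGAGA and 1 held CTGCGTCTC. The words were also not particular to intergenic peaks. GAGAGAGA was in 8.88% of autosomal intron peaks, 4.52% of X intergenic peaks and 5.83% of autosomal promoter peaks, and CTGCGTCTC in 6.55%, 2.01% and 7.44%. CACACACA stood in 27 intergenic summits (5.45%), against 1.92% of the flanks and 0.76% of the tiled windows, with 4.57% over all optimal peaks.

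Forkhead words were scarcer at the summits than beside them. At least 1 of the 4 words was present in 26 of 495 summit windows (5.25%, interval 3.46 to 7.60%), against 10.6% of the flanks and 10.1% of the tiled windows; over all optimal peaks it was 5.03%. GTAAACA itself stood in 4 summits, the variant ATAAACA in 7, the variant GTAAATA in 8 and the variant ATAAATA in 8. In replicate 1 alone forkhead words were in 5.17% of summits and 11.1% of flanks, and in replicate 2 alone in 5.87% and 11.0%. Peaks with and without a forkhead word had median signals of 56.6 and 57.5. Other AT-rich words showed the same arrangement. TGATAA was in 17 summits (3.43%), against 7.58% of the flanks and 8.75% of the tiled windows, with 3% over all optimal peaks, and TAATTA was in 8 (1.62%), against 6.26% and 5.05%, with 1.54% over all optimal peaks. In replicate 1 alone TAATTA was in 1.79% of summits, and in replicate 2 alone in 2.73%.

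Base composition moved with these shares, so they were also read within bands of G and C content. Among windows with 40 to 45% G and C, forkhead words were in 5 of 106 summits (4.72%) and 5.14% of tiled windows; with 45 to 50% they were in 4 of 106 (3.77%) and 3.20%; at 50% and above in 2 of 114 (1.75%) and 1.86%. Below 35% the shares were 6 of 82 (7.32%) and 13.4%, and between 35 and 40% they were 9 of 87 (10.3%) and 7.63%. The share of summits was thus well below that of the windows in the lowest band and near or above it in the other 4. Both GAGAGAGA and CTGCGTCTC had a higher share in summits than in windows in each band. GAGAGAGA was in 3.66%, 5.75%, 8.49%, 19.8% and 6.14% of summits from the lowest band to the highest, against 0.336%, 1.13%, 2.00%, 2.45% and 2.80% of tiled windows. CTGCGTCTC was in 1.22%, 2.30%, 6.60%, 13.2% and 17.5% of summits, against 0.0689%, 0.495%, 1.32%, 2.06% and 3.26%. Its shares in the 2 lowest bands rest on 1 and 2 summits, and those of GAGAGAGA on 3 and 5. TAATTA was below the windows in each band, from 4 of 82 summits (4.88%) and 6.94% of windows in the lowest to 0 of 114 and 0.864% in the highest. TGATAA was below them in each band but that of 45 to 50%, where it was in 3.77% of summits and 3.51% of windows. The general E-box word CANNTG gave no such contrast: it was in 29.5% of summits, 29.2% of flanks and 28.5% of tiled windows. CACGTG, 1 spelling of it, was in 2.63% of summits, 2.12% of flanks and 1.43% of tiled windows.

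**Figure D1:**
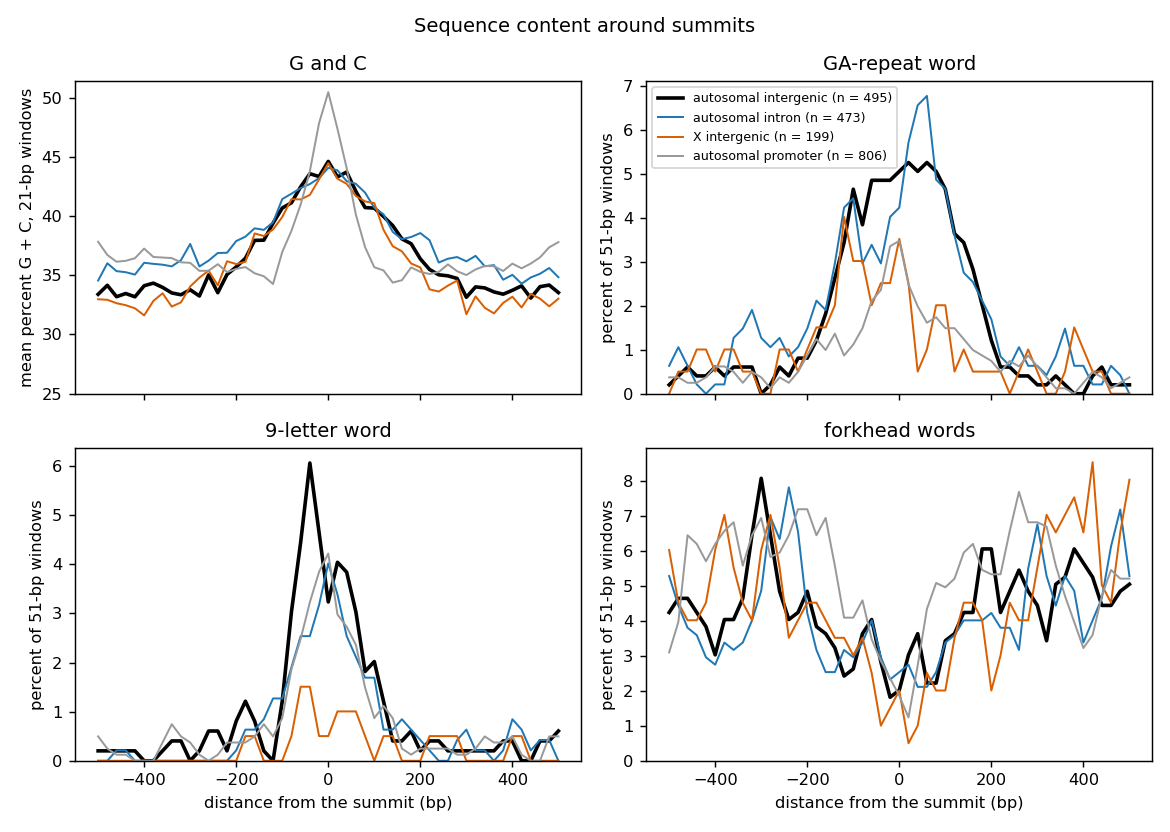
Mean percent of G and C in 21-bp windows and percent of 51-bp windows holding GAGAGAGA (GA-repeat word), CTGCGTCTC (9-letter word) or a forkhead word, by distance from the summit in bp, for 495 autosomal intergenic, 473 autosomal intron, 199 X intergenic and 806 autosomal promoter peaks. In the intergenic peaks G and C reaches 44.6% at the summit, GAGAGAGA is at 2.02% or more from 140 bp before to 180 bp after it, CTGCGTCTC is highest 40 bp before it at 6.06%, and forkhead words are at 2.02% at the summit.

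The strongest peak of the set lay beside ins-13, an insulin-like peptide gene on chromosome II. It ran from 5543433 to 5543615, with a signal of 273 in the list from both replicates, 148 in replicate 1 and 125 in replicate 2, and ranked 22nd of the 2602 optimal peaks. A second ins-13 peak, from 5543565 to 5543940 with a signal of 172, overlapped it and fell on the same peak in each replicate. Both summits stood 46 bp from sls-2.2, which encodes an SL2 spliced leader RNA, the short RNA joined to downstream messages of operons. In each replicate the same peak was the highest under both rows, so the rows are not taken as separate observations. Whether a weaker replicate peak also lay under either row was not counted. The highest replicate peak was likewise shared by a pair beside sup-26, a pair beside drn-1 and a pair between C26C6.9 and goa-1. With each such pair counted once, the 495 rows give 491 sites. The 2 ins-13 rows were the only peaks of the set within 500 bp of an annotated small nuclear RNA gene.

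The other leading peaks lay beside genes of varied function. The iff-2 peak (205; 96.6 in replicate 1 and 102 in replicate 2) lay 2002 bp beyond the start of a translation factor gene of the eIF5A family. The mtm-3 peak (200; 109 and 80.8) lay 1073 bp upstream of a myotubularin phosphatase gene. The hif-1 peak (192; 101 and 91.0) lay 1963 bp upstream of the hypoxia-inducible factor gene. All 3 ranked among the 100 highest peaks of both replicates. Beside F54F12.1 there were 2 peaks, 7240 and 5857 bp upstream, with signals of 179 and 174.

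Further down the order, saeg-1, whose product is a partner of the kinase EGL-4, had a peak of 174 at 5898 bp upstream, and F32D8.1, its neighbour across the same gap, had one of 160 at 5491 bp upstream. egl-3, the proprotein convertase that processes neuropeptides, had a peak of 165 at 1139 bp upstream, and egl-10, a regulator of G-protein signalling, one of 163 at 2582 bp. In replicate 1 these were 90.4 and 79.3, and in replicate 2 they were 67.3 and 81.9. The remaining 9 of the 20 leading peaks lay nearest to znf-782, sro-1, B0222.15, ddx-23, mvk-1, nhr-20, jnk-1, zfh-2 and F40E3.3, with signals from 147 to 168. Among these, zfh-2 is a zinc-finger homeobox gene and jnk-1 a stress-activated kinase gene, and their peaks lay 8962 and 2686 bp upstream. The 20 leading peaks had signals of 66.5 to 148 in replicate 1 and 59.7 to 125 in replicate 2, and every one was above the median of the set in both.

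**Figure D2:**
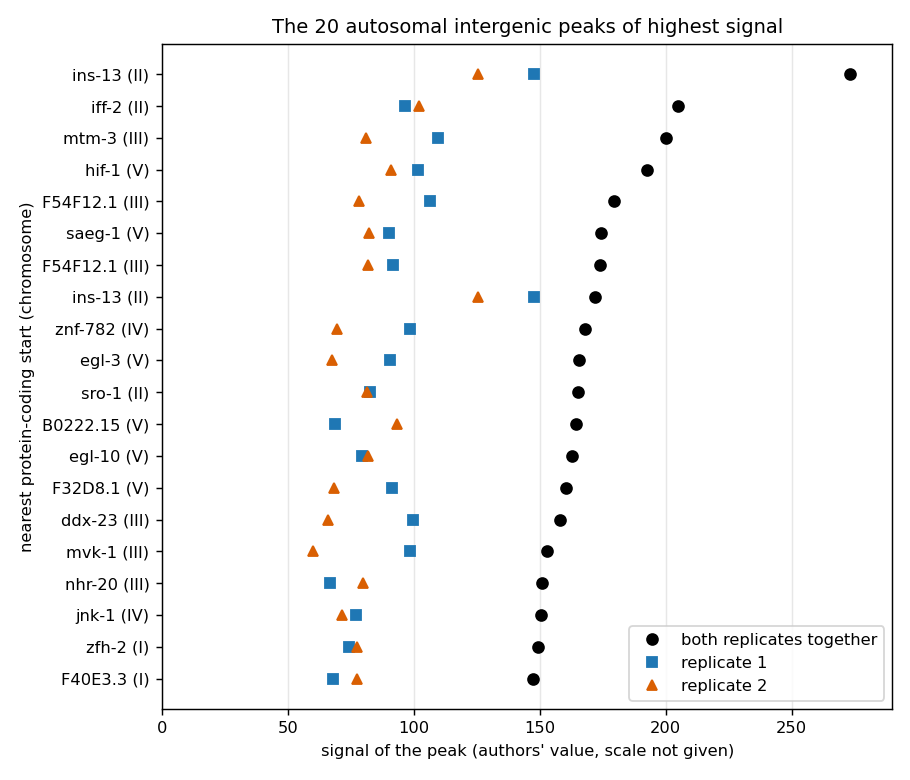
Signal of the 20 autosomal intergenic peaks of highest signal, 1 row per peak named by its nearest protein-coding start, with the value from both replicates together (circles), replicate 1 (squares) and replicate 2 (triangles). The scales of the 3 lists are not given, so positions are compared within a symbol; the 2 ins-13 rows share 1 peak in each replicate (148 and 125).

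As a whole the set was slightly weaker than the other classes. Its median signal was 57.5 (interquartile range 45.0 to 80.7, full range 37.1 to 273), against 60.7 for all optimal peaks, 60.7 for autosomal intron peaks, 67.1 for X intergenic peaks and 59.5 for autosomal promoter peaks. Signals of 100 or more were found in 71 of the 495 (14.3%), against 17.1% of intron, 26.6% of X intergenic and 18.1% of promoter peaks. In replicate 1 the medians of these 4 classes were 31.8, 33.6, 40.5 and 32.3, and in replicate 2 they were 27.9, 28.5, 31.1 and 29.5. The intergenic peaks of the X were thus the strongest and the autosomal intergenic peaks the weakest of the 4 in each list, with small differences among the 3 autosomal classes.

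The replicates shared 339 of the 495 peaks (68.5%, interval 64.2 to 72.6%), counted as overlap with one of the 2602 highest peaks of each. Over all optimal peaks the share was 72%, and it was 70.2% for intron, 82.4% for X intergenic and 71.2% for promoter peaks. Replicate 1 alone held 408 (82.4%) and replicate 2 alone 416 (84.0%), 69 were among the highest of replicate 1 only, 77 of replicate 2 only and 10 of neither. Against the full replicate lists, 494 overlapped a peak of replicate 1 and 495 a peak of replicate 2, so nearly all of the misses were differences in rank. Those lists are long, at 28842 and 28896 peaks, and the optimal peaks were themselves called on both replicates. Such overlap was therefore likely in advance and is no independent sign of agreement. By rank, 250 of the 495 stood higher in replicate 1.

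The peaks whose ranks differed most were all of low signal. Beside Y50D4C.12 a peak of 37.4 had 26.0 in replicate 1 and 5.85 in replicate 2, and beside csnk-1, a casein kinase gene, one of 41.3 had 33.6 and 6.63. The reverse held for the daf-7 peak at 42.0 (10.1 in replicate 1 and 30.7 in replicate 2), near the gene of the dauer TGF-beta ligand, for npr-25 (10.3 and 25.4) and for C30F12.2 (10.6 and 26.9). A second daf-7 peak differed the other way, with 41.7 in replicate 1 and 8.72 in replicate 2. The direction of the difference therefore varied between neighbouring sites.

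**Figure D3:**
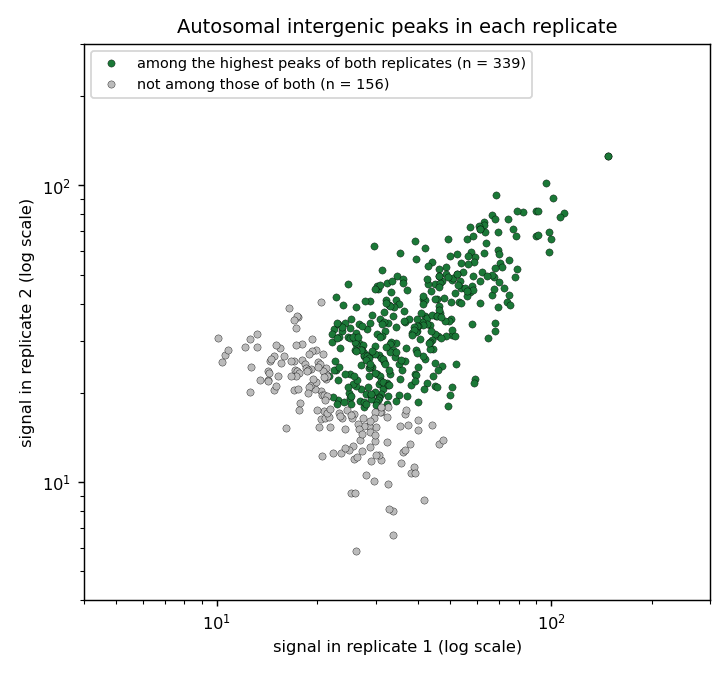
Signal of each autosomal intergenic peak in replicate 1 (horizontal, log scale) and replicate 2 (vertical, log scale), 1 point per peak, for the 494 peaks that overlap a peak in each. The 339 peaks among the highest of both replicates (dark) fill the upper right, and those outside (light) lie at the low end of 1 or both axes.

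The threshold of the optimal set cut through a continuous range. The list called on both replicates together held 3340 autosomal peaks in the same positions, of which the 495 (14.8%) were optimal, against 13.1% of that whole list. The 3 members of lowest signal lay near T16A9.3 (37.1), acc-4 (37.1) and flh-2 (37.3). Just outside were peaks near peli-1 (36.9), snx-27 (36.9) and flp-9 (36.8). The 2845 peaks below the threshold had a median signal of 15.7.

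The position limit also fell within a run of peaks. Just inside it lay peaks 1017 bp upstream of unc-11 (69.1), 1021 bp upstream of lmn-1, the lamin gene (56.3), and 1025 bp upstream of apd-3 (56.6). Just outside, and so classed with the promoters, lay peaks 995 bp upstream of npr-13 (57.8), 994 bp upstream of F57B1.5 (43.1) and 979 bp upstream of K05C4.9 (92.1).

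The peaks were spread over the gaps between genes much as the sequence was, with fewer in the nearest and the farthest bins. The median distance to the nearest protein-coding start was 2606 bp (range 437 to 12205), against 2778 bp for the tiled windows. Below 1000 bp lay 4 peaks (0.808%), against 2.07% of windows. Between 1000 and 2000 bp lay 171 peaks (34.5%), against 30.4% of windows, between 2000 and 3000 bp 114 (23.0%), against 21.6%, and between 3000 and 5000 bp 120 (24.2%), against 24.1%. Between 5000 and 10000 bp lay 80 (16.2%), against 17.8%, and beyond 10000 bp 6 (1.21%), against 4.02%. The most distant were near samt-1 (12205 bp, signal 51.9), egl-27 (10950 bp, 78.2) and Y37A1B.7 (10763 bp, 83.4). Median signal hardly varied over the 4 bins from 1000 to 10000 bp, at 57.3, 58.7, 58.2 and 56.7.

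Orientation of the neighbours gave a clearer contrast. The nearest start pointed away from 388 of the 495 peaks (78.4%), which therefore lay upstream of it, against 67.0% of the windows. In gaps between 2 genes that converge, where both genes end at the gap, there were 17 peaks (3.43%, interval 2.01 to 5.44%), although such gaps hold 15.9% of the sequence open to the rule. Divergent gaps, with a start at each end, held 186 (37.6%), against 30.2% of the sequence, and tandem gaps 292 (59.0%), against 53.8%. Convergent gaps held 25 of 503 peaks (4.97%) in replicate 1 alone and 22 of 477 (4.61%) in replicate 2 alone. The 17 convergent peaks had the lowest median signal of the 3 types, at 53.8, against 56.8 in divergent and 58.7 in tandem gaps. Of these 17, 14 were shared by the replicates (82.4%), against 67.7% in divergent and 68.2% in tandem gaps.

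**Figure D4:**
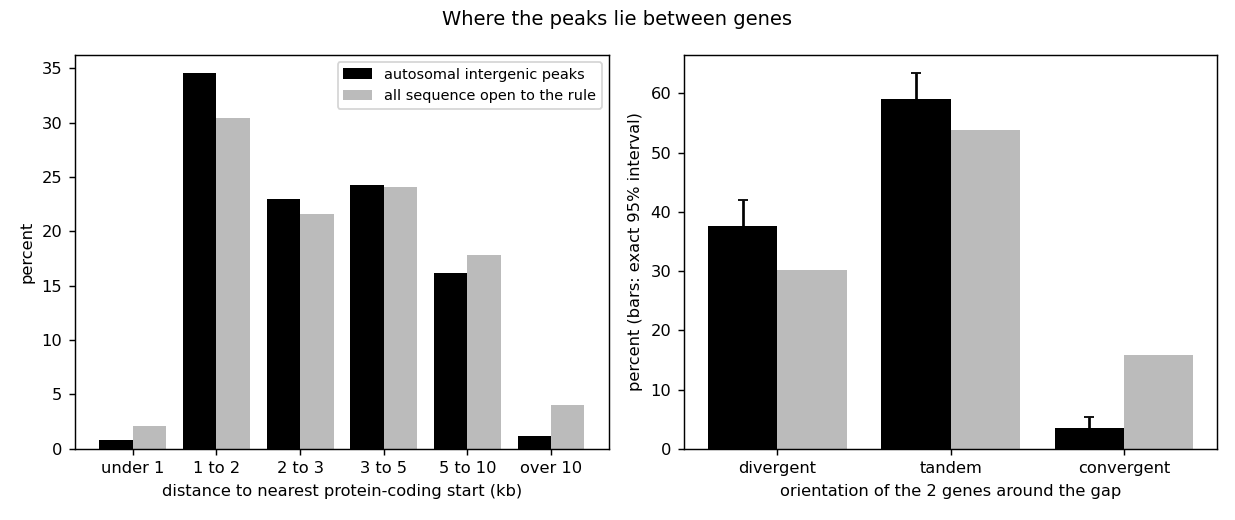
Left, percent of the 495 autosomal intergenic peaks (black) and of all tiled sequence open to the rule (grey) by distance to the nearest protein-coding start in kb. Right, the same by orientation of the 2 genes that border the gap, with exact 95% binomial intervals for the peaks; convergent gaps hold 3.43% of the peaks and 15.9% of the sequence.

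Density also varied along and between chromosomes. Per Mb of sequence open to the rule there were 40.0 peaks on chromosome I (105 peaks), 31.1 on II (101), 33.1 on III (86), 23.8 on IV (109) and 21.2 on V (94), with 28.3 over the 5 autosomes and 37.0 for the same class on the X. With each chromosome cut by length into 3 equal parts, the middle parts held 220 of the 495 (44.4%, interval 40.0 to 48.9%), against 31.9% of the open sequence, or 40.5 peaks per Mb, against 22.8 in the outer parts. In replicate 1 alone the share was 46.3% and in replicate 2 alone 43.4%. The contrast was widest on chromosome II, at 52.9 against 20.6 per Mb, and absent on chromosome III, at 32.7 against 33.3.

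Most peaks had no other peak of the set close by. No other member lay within 5000 bp for 344 peaks, while 48 pairs and 17 larger groups were linked by summits less than 5000 bp apart, and 9 peaks overlapped another optimal peak. With optimal peaks of every class counted, 225 of the 495 had another within 5000 bp, and the median distance to the next was 6950 bp, against 30951 bp to the next of the set. In 4 groups there were 4 peaks each, between hrdl-1 and ncx-4, between F21D12.3 and npax-1, between ser-4 and Y46E12A.3, and between npr-32 and ZK550.2. The last was the strongest, with signals of 37.3, 93.6, 102 and 119 across its gap on chromosome IV, and ncx-4, which borders the first, encodes a sodium-calcium exchanger. In replicate 1 the npr-32 group had 14.4, 51.5, 57.2 and 57.6, and in replicate 2 it had 23.4, 43.5, 43.8 and 59.4, so the same 3 peaks led in both.

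The nearest starts belonged to 443 protein-coding genes. Of these, 398 were nearest to 1 peak, 38 to 2 and 7 to 3, and in 491 of the 495 cases (99.2%) the nearest start belonged to a gene bordering the gap. The genes with 3 were F21D12.3, hrdl-1, glb-18 (a globin gene), csnk-1, drn-1 (a Ras-like GTPase gene, where 2 of the 3 rows share 1 peak in each replicate), npr-32 (a neuropeptide receptor gene) and tax-6 (calcineurin A). The tax-6 peaks lay 2499, 3464 and 6170 bp upstream, with signals of 145, 46.2 and 109. Their values were 78.7, 19.1 and 69.4 in replicate 1 and 67.6, 24.1 and 38.9 in replicate 2, and the middle peak was the weakest in each.

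Genes beside these peaks had peaks elsewhere more often than other genes. A promoter peak was found at 43 of the 443 (9.71%, interval 7.11 to 12.9%), against 6.26% of all autosomal protein-coding genes and 4.36% of the 8444 genes that are nearest to any sequence open to the rule. An intron peak was found at 51 (11.5%), against 1.98% and 2.68%. Gene length and the size of the gap were not matched in these shares. Neither kind was found at 355 of the 443 genes.

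Genes used by all or nearly all neurons were the most frequent group. Of 25 autosomal genes in a list of pan-neuronal genes, 11 were the nearest start of at least 1 peak, against 443 of all 17242 autosomal genes (2.57%). They accounted for 12 peaks (2.42% of the set), and 0.254% of the open sequence lies nearest to genes of the list. Replicate 1 alone gave 12 such peaks at 10 genes and replicate 2 alone 12 peaks at 11 genes. The list was drawn up with earlier results on these data known, in which neuronal genes already stood out, so its count is a description.

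The egl-3 peak led the list. unc-13, which primes synaptic vesicles, had peaks at 4679 and 1354 bp upstream with signals of 116 and 49.6 (49.1 and 15.5 in replicate 1, 66.2 and 28.4 in replicate 2). unc-64, the syntaxin gene, had one at 1309 bp upstream of 114 (69.8 and 47.2). rgef-1, a neuronal Ras exchange factor gene, had one at 2126 bp upstream of 104 (68.2 and 34.4). Each of these 4 genes thus had a peak of over 100, whose replicate values were above the set's median in both lists.

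Lower in the list, unc-44 (ankyrin) had 102, unc-104 (the kinesin that carries synaptic vesicle precursors) 95.8, unc-31 (dense-core vesicle release) 77.2, unc-11 (clathrin adaptor AP180) 69.1 and unc-57 (endophilin) 61.9. snt-1 (synaptotagmin) had 57.4 and unc-51 (the ULK kinase) 51.5. All of these lay upstream of the gene except the snt-1 peak, 9547 bp beyond its start. Of the 11 genes, 2 (rgef-1 and unc-31) also had a promoter peak in the optimal list, against 9.71% of all 443 nearest genes. The other 9 had none, although the unc-11 peak, at 1017 bp upstream, lay just past the 1000 bp limit. unc-13 and unc-64 had an intron peak. With promoter peaks counted too, 19 of the 25 genes had a peak, against 1479 of all 17242 autosomal protein-coding genes. Of the 12 intergenic peaks, 10 were shared by the replicates, and the unc-51 peak and the weaker unc-13 peak were not.

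Genes of neuronal signalling also had more peaks than their share of the sequence. Of 18 autosomal genes in a list drawn up for potassium and calcium channels, 5 were nearest to 7 peaks (1.41% of the set, against 0.241% of the open sequence). None of these 5 had a promoter peak, while 4 of the 18 did, against 6.26% of all autosomal protein-coding genes. kvs-3, a voltage-gated potassium channel gene, had peaks of 108 and 95.6, and shl-1 one of 96.5. ccb-1, a calcium channel beta subunit gene, had 80.7 and 80.5, and slo-1, the calcium-activated potassium channel gene, 72.5. The unc-79 peak was 41.9, and this gene is in the list although it encodes neither kind of channel. Of 28 transmitter receptor genes, 4 were nearest to 7 peaks (1.41%, against 0.369%). These were the glutamate-gated chloride channel genes glc-3 (82.1 and 52.4) and glc-4 (69.1 and 39.9), the muscarinic receptor gene gar-2 (76.6) and the serotonin receptor gene ser-4 (48.6 and 40.9). In replicate 1 alone these lists had 6 and 7 peaks, and in replicate 2 alone 8 and 8.

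Smaller counts came from other signalling lists, each above its share of the sequence but resting on 2 to 5 peaks and given without an interval. Of 16 insulin and dauer signalling genes, 3 were nearest to 5 peaks (1.01%, against 0.145%), led by din-1, a cofactor of the DAF-12 receptor, at 76.1, with akt-1 at 42.5. Axon guidance genes gave 4 of 24, at 4 peaks (0.808%, against 0.415%), of which unc-73 (109) and unc-5, the netrin receptor gene (38.5), are not in the pan-neuronal list. Wnt pathway genes gave 3 of 24, at 3 peaks (0.606%, against 0.290%), led by the Ror gene cam-1 (77.6), with the axin gene pry-1 (67.1) and the Frizzled gene mom-5 (48.2). Heterochronic genes gave 2 of 9, at 2 peaks (0.404%, against 0.127%), lin-41 (117) and sea-2 (58.7). In replicate 1 alone these 4 lists had 4, 4, 3 and 2 peaks and in replicate 2 alone 4, 4, 4 and 2. Not all of these peaks were shared by the replicates: 1 of the 5 insulin and dauer peaks and 2 of the 4 axon guidance peaks were among the highest of both replicates, and akt-1, both daf-7 peaks, the weaker din-1 peak, unc-51 and unc-5 were not. All 3 Wnt and both heterochronic peaks were shared.

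Of the large gene families, some had fewer peaks than their share of the sequence and some had more. Chemoreceptor genes gave 8 peaks (1.62%), led by srw-60 (108), although 5.39% of the open sequence lies nearest to one. Nuclear hormone receptor genes gave 5 (1.01%), led by nhr-20 (151), against 1.99%, and neuropeptide genes 3 (0.606%), led by flp-22 (133), against 1.12%. Hedgehog-related genes gave 2 (0.404%), led by ptc-1 (45.7), against 0.538%. By gene the order differed for neuropeptides and for hedgehog-related genes. They gave 3 of 70 (4.29%) and 2 of 72 (2.78%) autosomal genes, against 2.57% of all. Collagen genes gave 5 (1.01%), led by dpy-10 (76.3), against 0.702%. Insulin-like peptide genes gave 4 rows at 3 genes (0.808%, against 0.413%), of which 2 rows are the overlapping ins-13 pair.

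Lists of regulators of cell identity had 1 peak or 0, and they are small enough that such counts lie near the background. The 45 autosomal ceh homeobox genes gave 1 peak (0.202%, against 0.509% of the sequence), beside ceh-48 (104), which is 2.22% of the genes, against 2.57% of all. The list of other regulators of neuron identity gave 1 (0.202%, against 0.455%), beside cog-1 (60.2), which is 1 of 19 genes. zfh-2, which is in neither list, had a second peak of 107. Hox cluster, bHLH and forkhead genes gave 0 peaks, at 0.297%, 0.333% and 0.170% of the open sequence. Body wall muscle genes gave 1, beside unc-60, the cofilin gene (49.0). Ribosomal protein genes also gave 1, beside rps-25 (72.6), whereas 53 of the 75 autosomal genes of that list had a promoter peak.

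**Figure D5:**
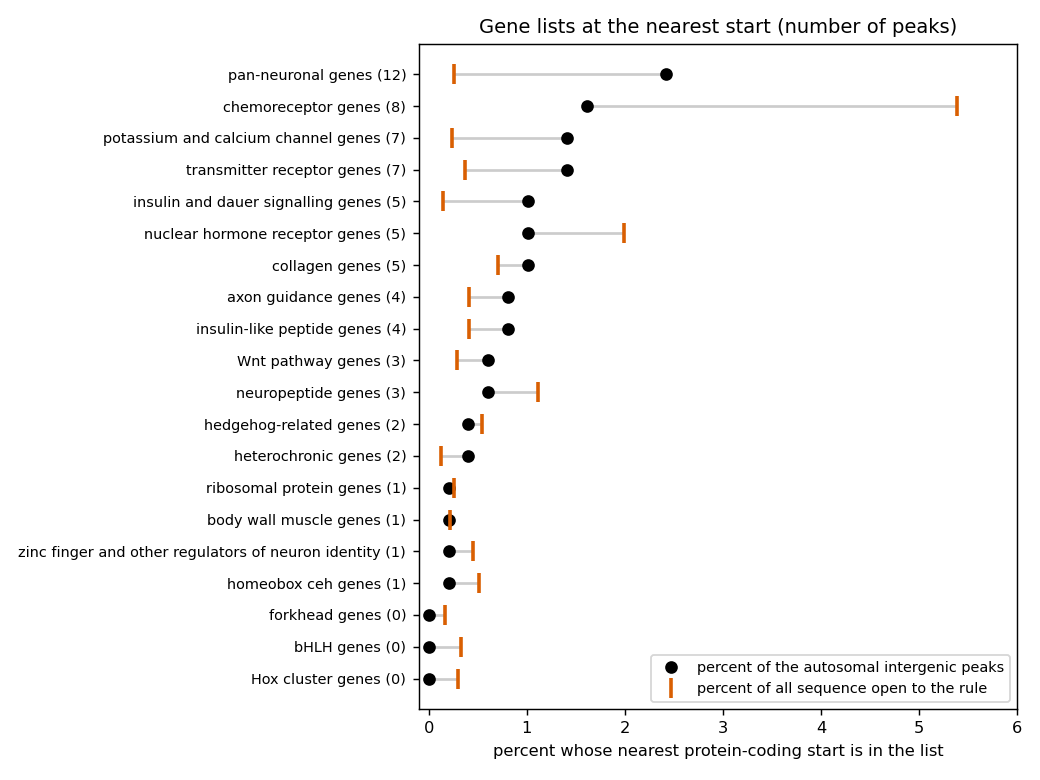
Percent of the 495 autosomal intergenic peaks (dots) and of the tiled autosomal sequence open to the rule (ticks) whose nearest protein-coding start is in each of 20 gene lists, with the number of peaks in brackets. Pan-neuronal genes have 2.42% of peaks at 0.254% of the sequence, and chemoreceptor genes 1.62% at 5.39%.

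Small RNA genes were near fewer of these summits than of the other classes. By the rule on summits they were near more of them than of the tiled windows, but this did not hold under a stricter rule. Within 500 bp of a tRNA, snoRNA, snRNA, miRNA or rRNA gene lay 13 summits (2.63%, interval 1.41 to 4.45%), against 5.92% of intron, 6.03% of X intergenic and 5.09% of promoter peaks, 6.38% of all optimal peaks and 1.08% of the tiled windows. The rule bars summits inside such genes, so the share is of summits beside them. With the whole peak required to lie outside promoters, genes and exons, the share was 0.789%, below that of the windows. snoRNA genes accounted for 10 (2.02%, against 0.293% of the windows), with the strongest near C26C6.13 (92.7), ZK20.9 (76.1) and C18A3.24 (69.0). A single tRNA gene stood near a summit, 489 bp from a peak of 56.5 on chromosome II, against 11 of the 199 X intergenic peaks (5.53%). miRNA and rRNA genes were near 0 of the 495.

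Other non-coding annotations varied in how often they were near. Genes annotated as ncRNA, a biotype for transcripts of no assigned class, lay within 500 bp of 74 summits (14.9%), against 6.27% of the tiled windows, 11.8% of intron, 19.1% of X intergenic and 16.3% of promoter peaks. The strongest were C17C3.23, which overlaps sls-2.2, and C51E3.11, 107 bp from the egl-3 summit. piRNA genes were near 29 (5.86%), against 7.89% of windows, led by 21ur-13445 beside the jnk-1 peak. Pseudogenes were near 11 (2.22%), against 8.68% of windows, with a median signal of 43.0, and lincRNA genes near 9 (1.82%), against 0.729%, led by linc-128 (115).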

How the data were processed

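FKH-10 ChIP-seq was done in 2 replicates of 1 group. The authors deposited narrowPeak lists for ce10 and ce11; only the ce11 lists were used here, and coordinates are 1-based. The list of each replicate held 28842 and 28896 peaks, the list from both 19924 and the optimal set 2602. The deposited signal per peak has no stated scale. The deposited −log10 q-value is capped at a shared top value and was not used for ranking. Neither labels nor file headers name the aligner, the peak caller or the depth.

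Genes came from Ensembl release 115 (WBcel235, 19973 protein-coding genes) and sequence from the RefSeq copy of ce11. Python 3.11.15, numpy 2.4.6, pandas 2.3.3, scipy 1.17.1 and matplotlib 3.10.9 were used. Each summit was assigned to a promoter first, then exon, intron and intergenic positions. Replicate overlap needed 1 bp with one of the 2602 highest peaks. Words were counted on both strands 50 bp to each side of the summit, and flanks were centred 300 bp away. The code was checked on simulated peaks. Regions are not replicates and there is 1 group, so no test was made and shares carry exact binomial intervals.

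Peaks are named where they are the 20 highest, differ most in rank, lie nearest to the limits, farthest from starts or beside small RNA genes, form the largest groups, or lead a gene list; the other members of the lists were named after their values were seen. The peaks, lists and words were chosen with earlier results on these data known. The symbols nca-1 and tni-2 matched no gene and were left out. Alternatives are given in the closing section.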

Additional observations from a re-analysis of the deposited data

How the results depend on the processing

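Of 186 values recomputed under another setting, 148 stayed and 38 did not, where a share or median had to stay in its exact 95% interval and the number of peaks within 1.5 times. A promoter limit of 500 bp gave 602 peaks, one of 2000 bp 339, and the whole peak outside promoters, genes and exons 380. With the 1301 optimal peaks of higher signal alone the set fell to 231 peaks, of which 98.7% were shared by the replicates, at a median signal of 83.0. Overlap with 1.5 times as many of the highest replicate peaks raised the shared part to 86.1%, and all replicate peaks to 99.8%. Longer replicate lists make such overlap likelier. The 500 bp limit gave a median distance of 2146.5 bp and the 2000 bp limit 3500 bp. With the whole peak outside, 0.789% were near a small RNA gene, which is below the 1.08% of the tiled windows. With windows of 25 bp to each side, forkhead words were in 2.02% of summits, GAGAGAGA in 5.05% and CTGCGTCTC in 3.23%, against 6.26%, 0.101% and 0.101% of flanks. With 100 bp they were in 11.1%, 16.8% and 14.5%, against 19.3%, 1.52% and 1.21%, and median G and C was 42.3%. The order of summits and flanks was thus kept. The central 50% of the chromosomes held 61.8%.

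Using the 2602 highest peaks of 1 replicate alone gave 477 to 503 peaks, a count partly set by that shared cut. GAGAGAGA ranged from 6.56% to 9.01% and CTGCGTCTC from 4.77% to 10.1%, the lower values being those without replicate 2; the cause was not tested. Without 1 replicate, the median distance ranged from 2508 to 2547 bp, the share near small RNA genes from 2.58% to 2.73%, G and C from 42.6% to 44.6%, forkhead words from 5.17% to 5.87% and the middle parts of the chromosomes from 43.4% to 46.3%. No paired analysis was possible because the study has 1 group and the values come from no test. Depth is unknown, so what it limits cannot be stated; absence from the optimal list is not absence of binding.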

Other observations

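A scan of all 6-letter words present in at least 15 of the 495 summit windows, 1092 words on both strands, was made after the data were seen and has no test. With 1 added to each count, the word with the highest ratio of summits to flanks was CGTCTC, the right part of CTGCGTCTC. It stood in 94 summits (19.0%), against 2.02% of the flanks and 2.54% of the tiled windows. Autosomal promoter peaks had it in 18.0%, intron peaks in 13.1% and X intergenic peaks in 8.04%. Of the 20 intergenic peaks of highest signal, 4 held it. GACGCA, which overlaps CTGCGTCTC on the other strand, was in 61 summits (12.3%), against 1.31% of flanks. GGGGAC was in 27 (5.45%), against 0.505% of flanks, 1.90% of intron, 2.01% of X intergenic and 2.48% of promoter summits.

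CACGTG was in 13 summits (2.63%) and 2.12% of flanks, with 2.42% over all optimal peaks. Of these 13 peaks, 12 (92.3%) were shared by the replicates, against 67.8% of the peaks without it. This contrast rests on 13 peaks and was not tested. GGGCGGG was in 6 summits (1.21%) and 0.101% of flanks, and TGACTCA in 8 (1.62%) and 0.909% of flanks. GTTCGANNC, the B box word of tRNA genes, was in 5 (1.01%) and 0.707% of flanks. Over all optimal peaks these words were in 1.38%, 1.11% and 2.04%, in that order. All of them rest on few summits. Without replicate 1 GGGCGGG was in 1.47%, TGACTCA in 0.839% and GTTCGANNC in 0.629%. Without replicate 2 they were in 0.795%, 1.19% and 0.199%.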
